A study of Mus musculus with 24 samples.

Results

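The lungs of mice that drank a high dose of mugwort extract before an endotoxin challenge were compared with the lungs of mice that received the challenge alone. The comparison holds 10 of the 24 lung RNA libraries of the study, chosen by their labels: 5 from the high-dose group and 5 from the LPS group. All mice were wild-type C57BL/6, 7 weeks old. The high-dose group had an aqueous extract of Artemisia argyi (AEAA), the Chinese mugwort, at 1.5 mg/mL in the drinking water for 28 days. On day 29 both groups received lipopolysaccharide (LPS), the endotoxin of Gram-negative bacteria, into the trachea at 5 mg/kg, and whole lungs were taken 8 h later. The other 14 libraries came from a low dose (0.5 mg/mL, n = 5) and a mid dose (1 mg/mL, n = 5) followed by LPS, and from control mice (n = 4) that had saline by the protocol, although their characteristics also list the challenge. No group had the extract without LPS, so an effect of the extract itself cannot be told apart from an effect on the LPS response. The labels give male sex, while the X-inactivation transcript Xist lay between 25.82 and 95.49 TPM and 4 Y-linked genes together at 0.15 TPM or less in every library. They do not say whether mice shared cages or at what hour of the day lungs were taken. Nothing but the label biol rep says that replicates are separate mice.

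LPS binds Toll-like receptor 4 with its partner CD14 and drives NF-kB, which switches on cytokines, neutrophil chemokines and acute-phase proteins in lung epithelium and macrophages. Airway club and goblet cells secrete secretoglobins and mucus proteins that line the bronchi, and fibroblasts and pericytes build the collagen and laminin scaffold. The molecular clock is a loop in which Bmal1 pairs with Clock or Npas2 to activate the Period, Cryptochrome, Rev-erb and Dbp genes. The products of the Period, Cryptochrome and Rev-erb genes shut the loop off.

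Levels are TPM, which scales reads by transcript length and library total, after dividing each library by a median-of-ratios factor. These scaled values were tested as log2(scaled TPM + 1) with limma over all 24 libraries, and a gene passed at a Benjamini-Hochberg adjusted p of 0.05 over the 17823 genes tested. A log2 difference on this scale understates the change of genes at low levels. Sequencing depth is unknown, since TPM carries no counts. A library of either group had 15280 to 16954 genes at 1 TPM or more. The factors did not overlap, at 1.083 to 1.269 in LPS and 0.8868 to 1.072 in high-dose libraries, so counts in the values as deposited are given beside those of the lists.

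Some libraries stood apart from their group. Skeletal muscle transcripts were high in LPS replicates 1 and 3, where the muscle actin Acta1 reached 1838 and 1155 scaled TPM against 5.81 or less in the other 8 libraries. Immunoglobulin kappa (Igkc) was at 2298 in LPS replicate 3 and between 170 and 406 in the other 9. The atrial myosin chain Myl7 was at 784 in high-dose replicate 4 and 198 or less in the other 9. Type II alveolar cell markers, which define lung tissue, summed to 19480 to 35660 in LPS and 16530 to 45030 in high-dose libraries. LPS replicates 2 and 4 and high-dose replicates 1 and 4 had the lowest Cxcl2, Tnf and Cxcl1 of their groups, as described with the cytokines.

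After the high dose, most listed ribosomal protein and respiratory chain genes and 4 of 16 airway secretory markers were higher than after LPS alone. The clock activators Bmal1, Npas2 and Clock were lower, 3 of 19 clock genes, and the Clock call did not hold with every library left out. Also lower were 8 of 27 matrix, 3 of 18 complement and 4 of 22 lipid synthesis genes. Of 17823 genes 1594 passed (8.94%), 1011 of them higher (5.67%) and 583 lower (3.27%). The change was small for most of them: 80 rose and 32 fell by at least 1 on the log2 scale, and the median over all genes was -0.01. For 701 genes (3.93%) the 5 and 5 libraries did not overlap, 420 with the high dose above (2.36%) and 281 with it below (1.58%). These calls rest on the spread estimated from all 5 groups. A limma fit to the 10 libraries alone passed 0 genes, with 2903 at an unadjusted p under 0.05, 330 at an adjusted p under 0.1 and a smallest adjusted p of 0.0659. All 1594 genes kept their direction and an unadjusted p under 0.05 in that fit. It uses the same 10 libraries and nearly the same differences, so this is no independent check. In the values as deposited 4919 genes passed (27.6%), 366 higher (2.05%) and 4553 lower (25.5%), with a median log2 difference of -0.27. Counts of lower list members in those values are to be read beside this 25.5%. The 2 scalings shared 940 calls of the same sign, 357 higher and 583 lower, and no gene passed in opposite directions. Of the 73 genes named here that passed, 46 passed with each of the 10 libraries left out in turn and 27 did not. Those that did not are marked with the libraries or the largest adjusted p. For Lamb2, Lama4, Col1a2 and Lama5 only the count of the matrix list is given.

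Ribosomal proteins, which form the small (Rps) and large (Rpl) subunits, gave the group with the most higher members. Start sites are shown here for ribosomal protein genes among the largest changes that had a listed start. Rplp1, also among them, had no listed start and is not shown. Messenger RNAs of this family typically begin with a run of the pyrimidines C and T that links their translation to growth signals. Each line is the window of 30 bases centred on the transcript start from RefSeq on GRCm38.p6, plus strand, with the longest run of C and T in capitals.
Rpl38 (chr11:114668565-114668594): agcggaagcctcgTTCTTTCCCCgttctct
Rplp2 (chr7:141447636-141447665): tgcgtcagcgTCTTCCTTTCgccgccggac
Rps19 (chr7:24884577-24884606): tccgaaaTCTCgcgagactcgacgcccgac
The run was 10 bases long for Rpl38 and Rplp2 and 4 for the first listed start of Rps19. Its first base was at -2, -5 and -8 from the transcript start in Rpl38, Rplp2 and Rps19. The runs of Rpl38 and Rplp2 cross the start, and that of Rps19 lies wholly upstream of the messenger. Among 57 ribosomal protein genes with a listed start, 23 (40.4%) had a run of 8 or more in this window, against 1328 of 11036 protein-coding genes tested (12.0%). The window reaches upstream of the start, so this count does not describe how messengers begin. It describes the letters only.

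Rps19, a small-subunit protein, was at 658, 469, 577, 496 and 537 scaled TPM in LPS replicates 1 to 5 and at 728, 1223, 1194, 1258 and 1361 in high-dose replicates 1 to 5. High-dose replicate 1 was the lowest of its group and still above all LPS libraries. The log2 fold change was 1.05 (95% CI 0.74 to 1.37, adjusted p = 0.00075). Rpl38, of the large subunit, went from 948 ± 174 (SD, n = 5) to 1939 ± 389 (SD, n = 5) scaled TPM, a log2 fold change of 1.02. Rplp2 and Rplp1, the acidic proteins of the ribosomal stalk, rose by 1.05 and 1.01. Of the 24 listed ribosomal proteins 20 rose and 0 fell, with a median log2 fold change of 0.70. The 4 that did not pass were Rps2 (0.64), Rpl3 (0.34), Rplp0 (0.32) and Rpl5 (0.27). Over all 77 cytosolic ribosomal protein genes 70 rose, and the libraries did not overlap for 44. Of all genes 5.67% rose, and 2.36% had the high dose above without overlap. Their summed share of the deposited TPM was 7.524% to 8.389% in LPS libraries and 8.928% to 11.74% in high-dose libraries. It was 6.914% to 7.935% in control libraries. There the club cell secretoglobin Scgb1a1 alone held 23.21% to 35.45% of TPM, against 8.676% or less in LPS and high-dose libraries. In scaled TPM the order differed. The 24 listed genes summed to 26010 to 32270 in control, 17500 to 24760 in LPS and 25060 to 42290 in high-dose libraries. In the values as deposited 15 of the 24 rose and 0 fell. Processed copies of these genes are common in the genome and can share reads with them. The retrocopies Rpl37rt (log2 fold change 1.22) and Rps27rt (1.20) were among the largest increases, and their reads cannot be told apart from those of Rpl37 and Rps27.

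**Figure D1:**
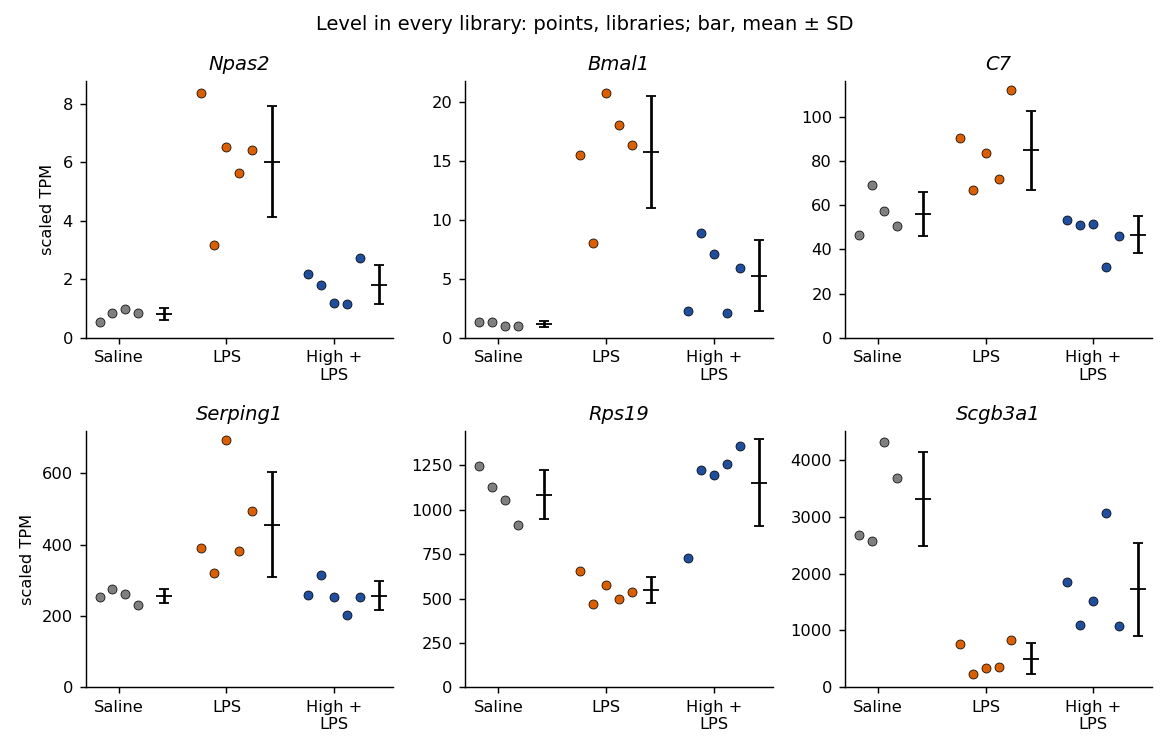
Scaled TPM (linear axis from 0) of 6 genes in saline control, LPS and high-dose plus LPS libraries; points are libraries in replicate order and bars are mean ± SD. Npas2, C7, Serping1, Rps19 and Scgb3a1 show no overlap between LPS and high-dose libraries, and Bmal1 overlaps at LPS replicate 2 (8.04) and high-dose replicate 2 (8.90).

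The respiratory chain drives ATP synthesis in mitochondria. Of 21 nuclear genes of oxidative phosphorylation 13 rose and 0 fell, with a median of 0.50, beside 5.67% of all genes higher. Cox6c, a subunit of cytochrome oxidase, was at 509, 279, 354, 306 and 307 scaled TPM in LPS and at 456, 660, 762, 822 and 912 in high-dose libraries. High-dose replicate 1 lay below LPS replicate 1, so the groups overlapped. The log2 fold change was 1.03 (95% CI 0.68 to 1.39, adjusted p = 0.0018). Cox7a2, also of cytochrome oxidase, rose by 0.98, and Ndufa1 and Ndufa4 rose by 0.95 and 0.79. The catalytic subunits of the ATP synthase Atp5f1a (0.06) and Atp5f1b (-0.24), and Sdha (0.02) of complex II, did not pass. In the values as deposited 6 of the 21 were higher and 3 lower. The count was 7 without LPS replicate 4 or high-dose replicate 2, 3 or 5, 8 without LPS replicate 2 and 15 without high-dose replicate 1. Of 15 transcripts of the mitochondrial genome 4 rose and 0 fell, and all 15 fold changes were above 0. mt-Nd4l went from 1024 ± 247 (SD, n = 5) to 1807 ± 464 (SD, n = 5), a log2 fold change of 0.81, and mt-Atp6, mt-Nd6 and mt-Nd1 rose by 0.90, 0.72 and 0.63. None of the 15 passed in the values as deposited, and 1 passed without LPS replicate 3 or 5 or high-dose replicate 4 or 5. With 1 library left out the largest adjusted p of mt-Atp6, mt-Nd6 and mt-Nd1 was 0.113, 0.133 and 0.0677.

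Transcript length moved with these differences. When genes were cut by length into 10 equal bins, in the shortest (median 549 nucleotides) 300 genes rose and 17 fell, and in the longest (median 7756 nucleotides) 8 rose and 177 fell. Spearman's rho between fold change and length was -0.36 over 16407 genes, which are not independent. The listed ribosomal proteins have a median length of 935 nucleotides and the matrix genes one of 5629. After the trend with length was removed in each library, a step chosen after seeing the data, 666 genes passed, 445 higher and 221 lower. Under it 14 of the 24 ribosomal proteins rose, as did 8 of the 21 respiratory genes and 1 of the 15 mitochondrial transcripts.

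**Figure D2:**
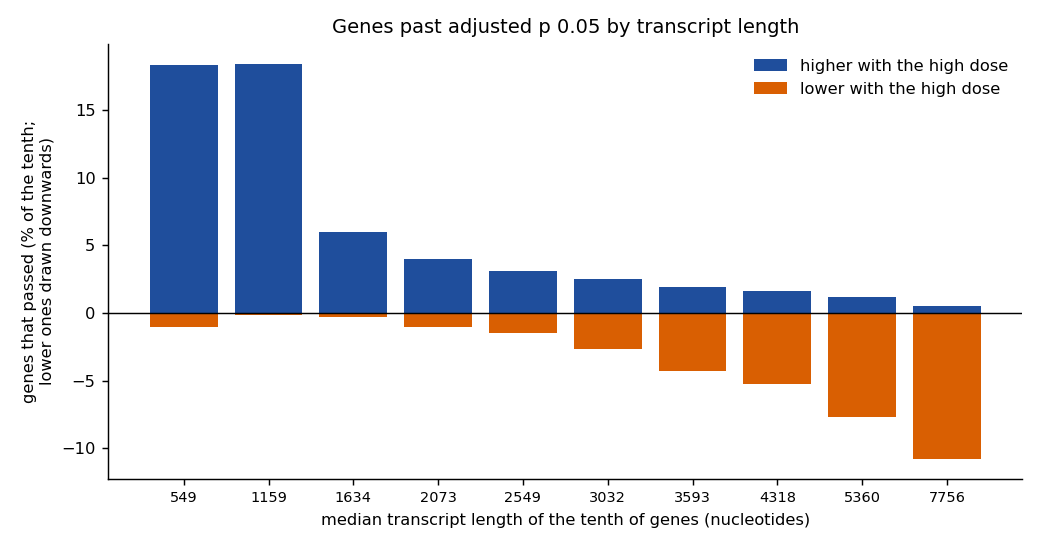
Share of genes (% of genes in each of 10 length bins, 16407 genes in all) that passed, higher drawn upwards in blue and lower drawn downwards in orange, by median transcript length in nucleotides. The share higher falls and the share lower rises from the shortest to the longest genes.

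Of 16 secretory markers of the airway lining 4 were higher after the high dose. Scgb3a1, a secretoglobin of airway secretory cells, had the largest increase among the named genes of this comparison. Its scaled TPM was 762, 229, 338, 358 and 832 in LPS replicates 1 to 5 and 1855, 1099, 1514, 3056 and 1083 in high-dose replicates 1 to 5. The groups did not overlap, and high-dose replicates 1 and 4 were the highest. The log2 fold change was 1.83 (95% CI 0.94 to 2.73, adjusted p = 0.011), and the control level was 3309 ± 828.8 (SD, n = 4). Agr2, a disulfide isomerase needed to fold mucins, was at 10.8, 8.66, 4.61, 13.2 and 9.80 in LPS and at 56.4, 19.5, 31.4, 65.1 and 15.9 in high-dose libraries (log2 fold change 1.75, adjusted p = 0.032). Its control level, 11.9 ± 2.81 (SD, n = 4), was near that of LPS. Lypd2 rose by 1.14 and the mucus-associated trefoil peptide Tff2 by 1.05. These were the 4 of 16 secretory markers that rose, beside 5.67% of all genes, and 0 fell. The median was 0.71, with 13 fold changes above 0 and 3 below, the lowest at -1.48. In the values as deposited 2 rose, and 1 rose after removal of the length trend. Without LPS replicate 3 or high-dose replicate 4, 1 rose. Agr2 was lost without LPS replicate 3 or 5 or high-dose replicate 3 or 4 (largest adjusted p 0.0874), Lypd2 without LPS replicate 3 or 4 or high-dose replicate 4 (0.0563) and Tff2 without LPS replicate 3 or high-dose replicate 4 (0.0599). Scgb1a1, the main club cell secretoglobin, went from 41840 ± 12302 to 69655 ± 22519 (SD, n = 5 each), a log2 fold change of 0.71 that did not pass (95% CI 0.10 to 1.33, adjusted p = 0.14). In whole lung, fewer cells of a type and less RNA per cell cannot be told apart. No marker passed among 15 of ciliated cells, and 0 of the 20 type I cell and junction genes passed. In the values as deposited 5 of the latter fell, beside 25.5% of all genes.

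The activating arm of the clock was lower. Bmal1 was at 15.5, 8.04, 20.8, 18.1 and 16.4 scaled TPM in LPS replicates 1 to 5 and at 2.29, 8.90, 7.07, 2.13 and 5.94 in high-dose replicates 1 to 5. High-dose replicates 1 and 4 were the lowest, and only LPS replicate 2 reached into the high-dose range. The log2 fold change was -1.51 (95% CI -2.20 to -0.82, adjusted p = 0.0079), and the control level was 1.17 ± 0.222 (SD, n = 4). Npas2, its alternative partner, was at 8.38, 3.15, 6.50, 5.62 and 6.40 in LPS and at 2.19, 1.80, 1.20, 1.16 and 2.71 in high-dose libraries, with no overlap. Its log2 fold change was -1.30 (95% CI -1.77 to -0.83, adjusted p = 0.0019). Clock fell by 0.34 (adjusted p = 0.025), a call lost without LPS replicate 4 or high-dose replicate 2 or 4 (largest adjusted p 0.0721) and after removal of the length trend (0.402). These were the 3 of 19 clock genes that passed, beside 3.27% of all genes lower. Of the 19 fold changes 13 were above 0 and 6 below, and the list median was 0.25. Also as deposited, 3 clock genes fell. The output gene Dbp had a fold change of 1.32 that did not pass (95% CI -0.11 to 2.75, adjusted p = 0.26), with 134 and 101 in high-dose replicates 1 and 4 and 12.1 to 18.9 in the others. Nr1d2 (0.74), which encodes a Rev-erb repressor, and Per2 (0.50) did not pass either. Dbp, Nr1d2 and Per2 are named after their values were seen. The hour of collection is not in the labels, and clock genes vary with it, so its part in these values was not tested.

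The Bmal1 sequence below is shown because Rev-erb and ROR receptors control this gene through elements with the core AGGTCA. It is a window of 30 bases from RefSeq on GRCm38.p6, plus strand, with the core in capitals.
Bmal1 (chr7:113207530-113207559): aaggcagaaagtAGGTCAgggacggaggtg
The core starts at base 32 of the second of 2 listed starts, counted from 1 at the first transcribed base. Its letters, read on both strands, were in 5340 of 32851 start windows of 300 bases (16.3%). They were in no listed window of Npas2. This is a match of letters and says nothing about binding.

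Matrix and mesenchymal genes were lower. Of 27 fibroblast and extracellular matrix genes 8 fell and 0 rose, with a median of -0.52. Over all genes 3.27% fell. Spon2, a secreted matrix protein, was at 24.2, 23.1, 17.2, 40.6 and 23.3 scaled TPM in LPS and at 7.25, 6.34, 9.12, 8.43 and 17.9 in high-dose libraries. High-dose replicate 5 was just above LPS replicate 3. The log2 fold change was -1.33 (95% CI -1.93 to -0.74, adjusted p = 0.0070), and the control level was 3.81 ± 0.944 (SD, n = 4). The collagen chain Col1a1 went from 88.7 ± 26.7 to 53.7 ± 5.75 (SD, n = 5 each), a log2 fold change of -0.67 that was lost without LPS replicate 1 or LPS replicate 5 (largest adjusted p 0.0673). Svep1, a large adhesion protein, fell by 0.69 and the fibrillar collagen chain Col5a1 by 0.65. The basement membrane laminins Lamb2 and Lama4 fell by 0.63 and 0.62; they and the next 2 are named after their values were seen. Col1a2 (-0.51) and the laminin chain Lama5 (-0.52) completed the 8. After removal of the length trend 4 of the 27 fell, and in the values as deposited 18 fell. Of 15 smooth muscle and pericyte markers 2 fell: Notch3, a receptor of mural cells, by 0.75 and Pdgfrb, the receptor that recruits pericytes, by 0.62. Pdgfrb did not overlap, with 40.1 to 51.9 in LPS and 21.2 to 32.8 in high-dose libraries. Of 22 endothelial markers 2 fell, the cadherin Cdh5 by 0.56 and the receptor Tie1 by 0.51, beside the 3.27% of all genes. As deposited, 5 of the mural and 11 of the endothelial markers fell, beside 25.5% of all genes. Summed adipocyte markers ranged from 100.2 to 1269 in LPS and from 52.13 to 557.2 in high-dose libraries, and skeletal muscle RNA was high in LPS replicates 1 and 3; their part in these differences was not tested. Without LPS replicates 1 and 3 together, a choice made after seeing the data, 6 of the matrix genes and both mural genes fell. With 1 library left out the matrix count was 5 (without LPS replicate 5) to 10 (without high-dose replicate 1). Without LPS replicate 5 calls among Lamb2, Lama4, Col1a2 and Lama5 were lost as well as that of Col1a1. The endothelial count was 1 without LPS replicate 3, 4 or 5 or high-dose replicate 2, 3 or 5 and 4 without high-dose replicate 1, and Tie1 reached an adjusted p of 0.113.

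Complement, the plasma cascade that tags and lyses microbes, had 3 of 18 genes lower and 0 higher, beside 3.27% of all genes lower. In the values as deposited 7 were lower, beside 25.5% of all genes. C7, a part of the membrane attack complex, was at 90.4, 66.8, 83.5, 71.6 and 112 scaled TPM in LPS and at 53.1, 50.8, 51.3, 32.2 and 45.8 in high-dose libraries. The groups did not overlap, and the control level was 55.8 ± 9.94 (SD, n = 4). The log2 fold change was -0.85 (95% CI -1.16 to -0.53, adjusted p = 0.0021). Serping1, the inhibitor of the C1 proteases, was at 392, 320, 695, 382 and 494 in LPS and at 260, 316, 253, 203 and 254 in high-dose libraries (log2 fold change -0.79, adjusted p = 0.0069). Its highest value was in LPS replicate 3, and without it and LPS replicate 1 the fold change was -0.62. C4b fell by 0.78 (adjusted p = 0.039); its paralog C4a can share its reads, and the call was lost without any of LPS replicates 1, 3 and 5 and high-dose replicates 2, 3 and 5 (largest adjusted p 0.12).

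Lipid synthesis genes were lower in 4 of 22, with 0 higher, beside 3.27% of all genes lower. Fasn, the fatty acid synthase, went from 158 ± 44.0 to 85.0 ± 29.98 (SD, n = 5 each), a log2 fold change of -0.90. High-dose replicate 1 was at 138 and the other 4 between 65.8 and 76.3. Acaca, which makes malonyl-CoA, fell by 0.67, the lipogenic regulator Srebf1 by 0.49 and Acly, which supplies acetyl-CoA, by 0.35. The cholesterol synthesis genes of the list did not pass. As deposited, 11 of the 22 and 5 of the 17 type II alveolar cell markers fell, beside 25.5% of all genes. Of 17 type II alveolar cell markers 2 fell, Fasn and the surfactant lipid transporter Abca3 (-0.61). The adipocyte lipase Lipe fell by 0.77. After removal of the length trend 1 of the 22 synthesis genes and 0 of the type II markers passed. With 1 library left out 1 (without high-dose replicate 5) to 4 synthesis genes fell, and 0 type II markers fell without LPS replicate 5 or high-dose replicate 3 or 5. The largest adjusted p was 0.0674 for Fasn, 0.0561 for Acaca, 0.103 for Acly and 0.0645 for Abca3. Without LPS replicates 1 and 3 together Lipe had an adjusted p of 0.081.

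**Figure D3:**
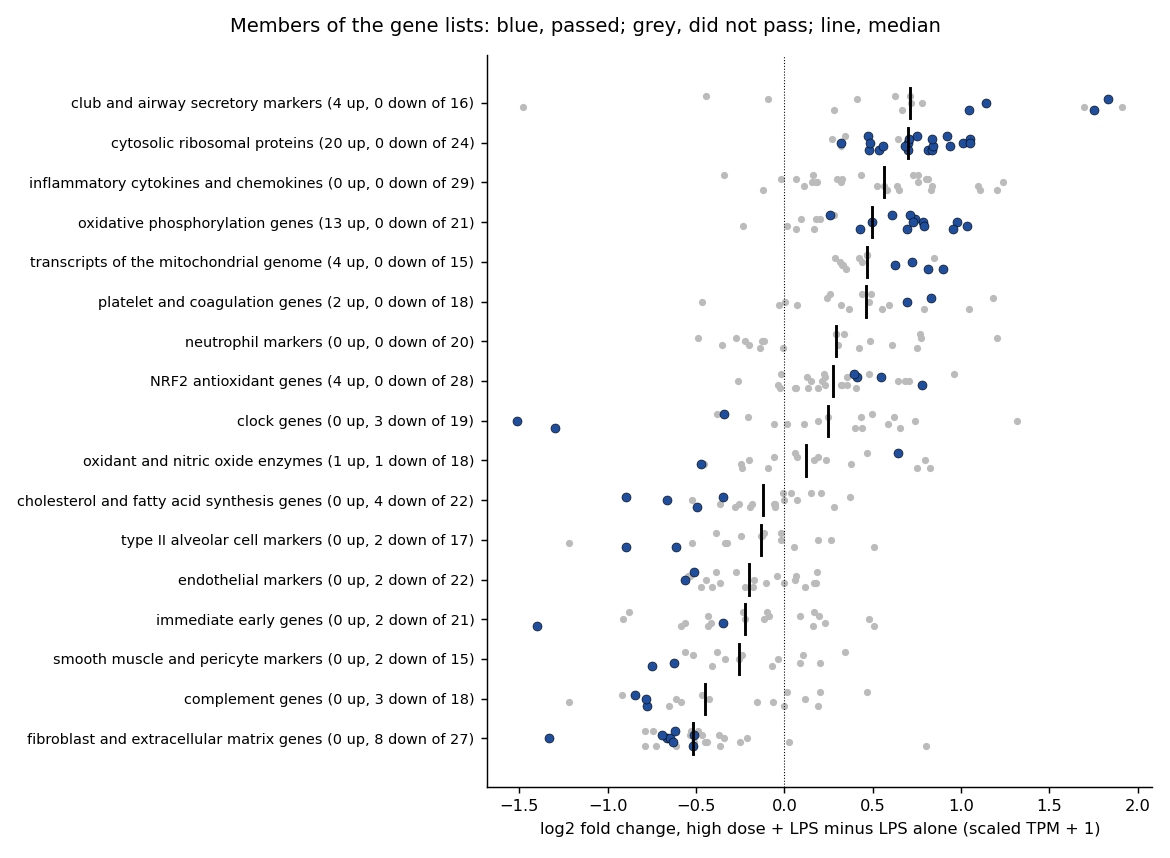
Log2 fold change (high dose plus LPS minus LPS alone) of each measured member of the gene lists with at least 2 members that passed, plus cytokines and neutrophil markers; blue points passed, grey points did not, and the black line is the median. Ribosomal members lie to the right of 0 and all but 2 matrix members to the left, while no cytokine or neutrophil marker is blue.

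Antioxidant genes moved in few members, beside 5.67% of all genes higher and 3.27% lower. NRF2 is the transcription factor that raises glutathione and thioredoxin enzymes under oxidant stress. Of its 28 listed genes 4 rose and 0 fell: the thioredoxin Txn1 by 0.78, the ferritin light chain Ftl1 by 0.55, the glutathione transferase Gstp1 by 0.41 and the pentose phosphate enzyme Taldo1 by 0.39. Txn1 was at 232 to 291 in LPS and at 234, 476, 514, 441 and 579 in high-dose libraries, so high-dose replicate 1 lay within the LPS range. The classical targets Hmox1 (0.23), Nqo1 (0.23), Gclm (0.23) and Srxn1 (0.13) did not pass. In the values as deposited 1 rose and 1 fell, and after removal of the length trend none passed. Without LPS replicate 3 or high-dose replicate 2, 2 rose. With 1 library left out the largest adjusted p was 0.109 for Ftl1 and 0.0625 for Taldo1. The 2 superoxide dismutases that passed went opposite ways. The cytosolic Sod1 rose from 805 ± 87.6 to 1261 ± 184 (SD, n = 5 each; log2 fold change 0.64, adjusted p = 0.0021). The extracellular Sod3 was at 108, 96.8, 91.6, 123 and 111 in LPS and at 87.6, 70.0, 62.7, 77.5 and 83.4 in high-dose libraries. It fell by 0.47 (adjusted p = 0.012), and neither gene overlapped between the groups. Of 23 xenobiotic and aryl hydrocarbon receptor genes, which respond to plant compounds, none passed. In the values as deposited 2 fell, beside 25.5% of all genes.

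Inflammatory genes did not differ beyond the spread between mice, which was wide in both groups. Cxcl2, a neutrophil chemokine, was at 241, 1.08, 40.2, 0.0715 and 162 scaled TPM in LPS replicates 1 to 5 and at 0.410, 199, 361, 0.388 and 354 in high-dose replicates 1 to 5. LPS replicate 4 and high-dose replicates 1 and 4 lay near the control level of 0.222 ± 0.114 (SD, n = 4), and LPS replicate 2 was the next lowest. The difference was 0.76 with a 95% CI from -3.63 to 5.15 (adjusted p = 0.87). Tnf was at 1.3 and 1.0 in LPS replicates 2 and 4 and at 15.8 to 30.2 in the other 3 LPS libraries. In the high-dose group Tnf was at 1.13 and 0.493 in replicates 1 and 4 and at 59.0 to 71.7 in the others (log2 difference 0.80, 95% CI -1.92 to 3.52). Il1b (0.18, 95% CI -2.74 to 3.11), Il6 (0.58, 95% CI -1.26 to 2.43), Cxcl1 (0.56, 95% CI -2.72 to 3.84) and the neutrophil alarmin S100a9 (0.31, 95% CI -2.005 to 2.62) had intervals on both sides of 0 as well. These intervals hold both a fall and a rise by more than 1 on the log2 scale, so they do not show that the levels were alike.

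**Figure D4:**
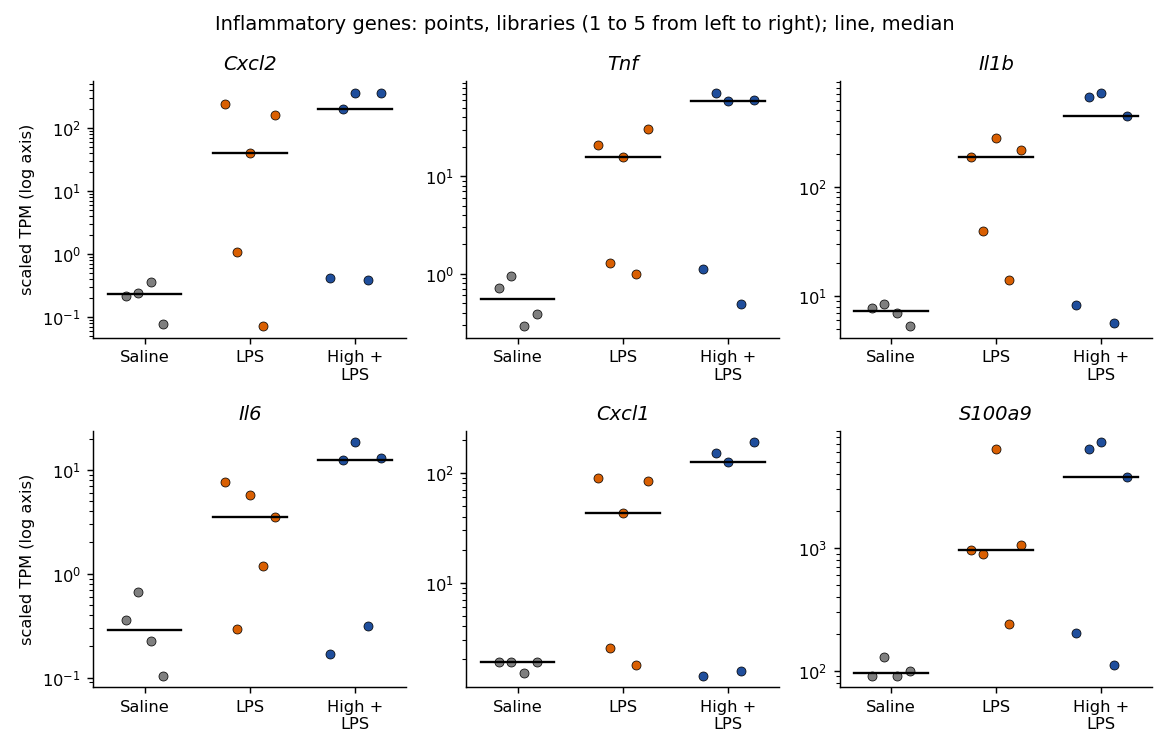
Scaled TPM (log axis) of 6 inflammatory genes in saline control, LPS and high-dose plus LPS libraries; points are libraries in replicate order and lines are medians. LPS replicates 2 and 4 and high-dose replicates 1 and 4 are low in Cxcl2, Tnf and Cxcl1, and the other 6 challenged libraries are high.

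None of 29 cytokines and chemokines, 28 genes of LPS sensing and NF-kB, 27 interferon-stimulated genes, 20 neutrophil markers and 21 markers of recruited monocytes passed. The medians were 0.56, 0.07, -0.07, 0.29 and 0.07. In the values as deposited 4 NF-kB pathway genes and 1 interferon-stimulated gene fell and none rose in these lists, beside 25.5% of all genes lower. The summed neutrophil markers ranged from 799 to 18010 in LPS and from 680 to 29490 in high-dose libraries. The most abundant acute-phase transcripts, Saa3 (log2 difference -0.02) and Lcn2 (0.49), did not pass. Saa3 was at 9.11 in LPS replicate 4 and 7.18 and 10.2 in high-dose replicates 1 and 4, at 89.7 in LPS replicate 2, and at 6971 to 21947 in the other 6. Cd14, the LPS co-receptor, had a difference of 0.91 and Nfkbia, the NF-kB inhibitor, one of 0.26, and neither passed. Isg15 (0.55), Ifit3 (0.20) and the monocyte gene Lyz2 (0.28) did not pass either. Of 13 inflammasome genes 1 rose, beside 5.67% of all genes: Nek7, a partner of the NLRP3 sensor, by 0.36 (adjusted p = 0.041). It was at 28.3 to 39.1 in LPS and 39.8 to 48.3 in high-dose libraries, but its difference in the values as deposited was 0.05. Its call was lost without any of LPS replicates 1, 3 and 5 and high-dose replicates 2 to 5 (largest adjusted p 0.116).

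Other lists held 1 or 2 calls, beside 5.67% of all genes higher and 3.27% lower. A single call in lists of this size is near those shares and is no result about the list. The immediate early genes Fos and Jun, which transcribe within minutes of a stimulus, fell by 1.40 and 0.35, 2 of 21, and neither passed after removal of the length trend, while 7 of the 21 fell in the values as deposited. Fos was at 94.1, 84.3, 117, 35.2 and 28.2 in LPS and at 14.2, 28.4, 36.6, 18.1 and 23.8 in high-dose libraries, and its call was lost without any of LPS replicates 1, 2 and 3 and high-dose replicates 1, 2, 4 and 5 (largest adjusted p 0.108). Jun was lost without any library except LPS replicate 2 and high-dose replicate 1 (0.116). The glucocorticoid-induced phosphatase Dusp1 fell by 0.88, 1 of 16 in its list. The co-chaperone Bag3 fell by 0.37 (1 of 22) and the serine pathway enzyme Shmt2 by 0.33 (1 of 17). The platelet receptor subunit Gp9 rose by 0.83 and tissue factor (F3), which starts coagulation, by 0.70, 2 of 18. The lysosomal cholesterol carrier Npc2 rose by 0.43 (1 of 20) and the p53 target Ccng1 by 0.37 (1 of 15). The tetraspanin Cd9 rose by 0.31 (1 of 19). In the values as deposited Cd9 had a difference of -0.01, and Gp9 (0.57), F3 (0.38), Npc2 (0.11) and Ccng1 (0.06) did not pass. With 1 library left out the largest adjusted p was 0.0759 for Bag3, 0.107 for Shmt2, 0.0917 for Gp9, 0.1 for F3, 0.0762 for Ccng1 and 0.0684 for Cd9, each lost without LPS replicate 3 among others. No member passed among dendritic cell and MHC class II genes (15), T and NK cell markers (19), B cell markers (14), eicosanoid enzymes (15), HIF-1 and glycolysis genes (22), fatty acid oxidation genes (18), cell cycle genes (20), mesothelial markers (12) and erythroid genes (13). Taken as deposited, 4, 3, 1, 2, 2, 5, 7, 3 and 1 of these fell, in the same order, and none rose. Among all genes 25.5% fell in those values. Of the heat shock, lysosome, amino acid stress and glucocorticoid response lists 12 of 22, 8 of 20, 4 of 17 and 2 of 16 genes fell there. No skeletal muscle (8) or cardiac muscle transcript (12) passed in the scaled values or as deposited. Their summed levels ranged from 48.78 to 4302 and from 328.1 to 646.9 in LPS libraries. In high-dose libraries they ranged from 25.97 to 363.1 and from 228.0 to 2631.

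Among the largest increases outside these groups were Ctla2a, an inhibitor of cysteine proteases, Smim22, Nicol1, Urah and Rn7s2. Ctla2a was at 183, 181, 220, 235 and 160 in LPS and at 299, 487, 512, 497 and 417 in high-dose libraries (log2 fold change 1.16, adjusted p = 0.0019). Smim22, a small membrane protein, and Nicol1 each rose by 1.05, and Urah, an enzyme of urate breakdown, by 1.02. Rn7s2, a copy of the 7SL RNA of the signal recognition particle, rose by 1.01, and its near-identical copies share reads. Among the largest decreases besides Npas2 were Pcdh12, an endothelial protocadherin, by 1.23 and Fam124b by 0.99. Pcdh12 was at 13.8, 20.0, 9.62, 23.6 and 12.5 in LPS and at 8.05, 4.56, 3.82, 6.46 and 7.40 in high-dose libraries. Polycystin-1 (Pkd1) and the receptor Mrgprf each fell by 0.77, as did the zinc finger gene Zfp462, and Ccnjl, the ubiquitin ligase gene Rnf144a and the homeobox gene Pknox2 fell by 0.76, 0.73 and 0.71. All of these passed in the values as deposited and did not overlap between the groups in scaled TPM, since the rule that named them asked for both. Rnf144a was lost without LPS replicate 4 or high-dose replicate 2, 3 or 5 (largest adjusted p 0.0672).

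To ask what set the high dose apart from the lower ones, it was tested against the mean of the low and mid doses, a contrast that leaves out the LPS libraries but shares the high-dose libraries with the comparison above. Of 17823 genes 388 passed (2.18%), 183 higher (1.03%) and 205 lower (1.15%), and 270 of them also passed against LPS alone in the same direction. In the fit to the 15 libraries of the 3 doses alone 92 passed, and without high-dose replicate 4 or 5 63 did. Spon2 was at 29.6 ± 11.1, 22.2 ± 8.38 and 9.81 ± 4.66 scaled TPM (SD, n = 5 each) at the low, mid and high dose, a difference of -1.31 (adjusted p = 0.012). C7 (-0.92), Col1a1 (-0.82), Npas2 (-0.77), Serping1 (-0.70), Sod3 (-0.65) and Pdgfrb (-0.57) were lower too. Of the 27 matrix genes 6 were lower than at the other doses, as were 3 of the 18 complement genes. Ctla2a was at 272 ± 93.3, 200 ± 58.8 and 442 ± 88.0, a difference of 0.94 (adjusted p = 0.010). Nppb, the B-type natriuretic peptide, gave the largest rise (1.69, adjusted p = 0.035), from 1.15 or less in all low and mid libraries to 0.989, 2.18, 18.2, 6.81 and 0.699 in high-dose replicates 1 to 5. Its rise against LPS alone (1.53, adjusted p = 0.049) was lost without any of 7 libraries, high-dose replicates 3 and 4 among them. In LPS replicate 3 Nppb was at 2.68, above high-dose replicates 1, 2 and 5. High-dose replicate 4 was also the library with high atrial Myl7, and the part of heart tissue in the Nppb values was not tested. The platelet receptor subunit Gp1bb (0.80) and Ctla2b (0.77) were also higher. Siglecf, a lectin of eosinophils and alveolar macrophages, and the endolysosomal channel Mcoln3 were lower by 1.25 and 1.18, and neither passed against LPS alone.

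Of the 24 listed ribosomal proteins 8 were higher than the mean of the low and mid doses and 0 lower. Of all 77 ribosomal protein genes 23 were higher, beside 1.03% of all genes. The ribosomal share of TPM at the low dose, 9.473% to 10.32%, lay within the high-dose range, and at the mid dose it was 7.762% to 9.358%. None of the 21 respiratory genes passed, and none of the 16 secretory markers did (Scgb3a1 0.76, adjusted p = 0.27). For Bmal1 the difference was -0.89 with an adjusted p = 0.094. A p that misses the threshold does not show that the doses acted alike.

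**Figure D5:**
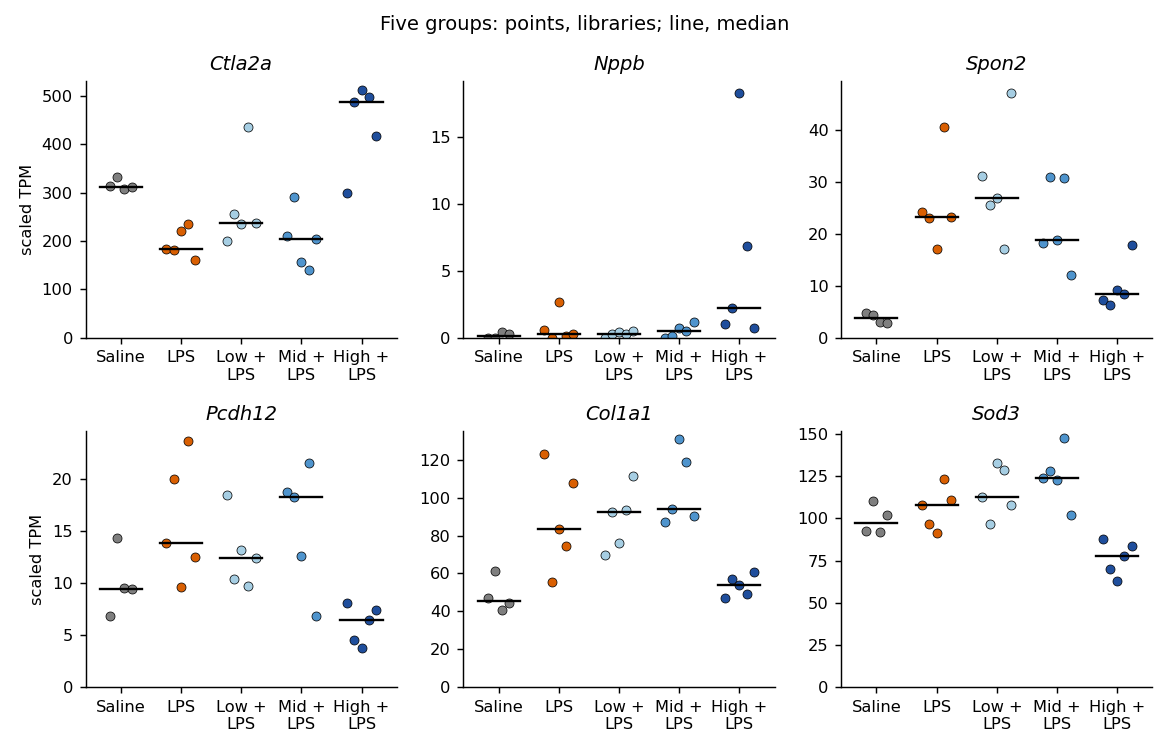
Scaled TPM (linear axis from 0) of 6 genes in all 5 groups; points are libraries and lines are medians. At the high dose the median of Ctla2a is above, and those of Spon2, Pcdh12, Col1a1 and Sod3 are below, the medians of the low-dose, mid-dose and LPS groups, and the Nppb rise rests on high-dose replicates 3 and 4 (18.2 and 6.81).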

How the data were processed

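Total RNA from lung was depleted of ribosomal RNA and sequenced as 150-base pairs, per the labels' protocols. The deposited TPM values were made by the authors; among the tools in the submitters' processing notes are HISAT2 and StringTie, then RSEM and DESeq2, on the GRCm39 build, with no versions. No counts were used, so depth is unknown. Genes with a TPM of at least 1 in at least 4 of 24 libraries were kept. Values were divided by median-of-ratios factors over the tested genes above 0 in all libraries; factors over all genes were computed first (1556 calls) and, after both results were seen, the tested-gene version (1594 calls) was kept because it matches an earlier analysis. limma 3.58.1 (R 4.3.3; trend, robust, two-sided, 19 residual degrees of freedom) was fitted with 1 mean per group and tested on simulated data. Length and GC came from GENCODE transcripts (92.1% of tested genes), start windows from RefSeq.

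The named genes were the 12 largest changes each way that passed under both scalings without overlap, the 4 largest passing members per list (or the 2 most abundant), and the 4 largest each way against the other doses, without unnamed models, pseudogenes and immunoglobulin segments in the first and last; 8 genes show inflammation, airway RNA and muscle. A gene that the rule names is not reported here. The members and the 43 lists (776 of 799 symbols measured) were chosen with earlier results of these data known. Alternatives were other scalings, filters and pseudocounts, weights, the compared groups alone, a replicate block, leaving out libraries, and removal of length trends.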

Additional observations from a re-analysis of the deposited data

Results flagged for a closer look

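Within the groups of 5, 12 of 250 sets of values held 1 library far from the rest, where chance flags about 1 in 20. High-dose replicate 1 was low in Rps19 (728 scaled TPM, next 1194), Rplp2 (576, next 1086) and Ccng1 (48.6), and high in Fasn (138, next 76.3). High-dose replicate 3 was low in Npc2 (448). LPS replicate 3 was high in Igkc (2300) and low in Krt19 (152) and Actc1 (42.3). LPS replicate 4 was high in Ccnjl (3.37) and Clock (13.3), LPS replicate 1 was high in Rpl38 (1250) and LPS replicate 2 low in Jun (124).

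The high dose differed from the mean of the low and mid doses for several named genes (limma, adjusted p under 0.05). Higher at the high dose on the log2 scale were Nppb (1.69), Ctla2a (0.94), Gp1bb (0.80), Ctla2b (0.77), Rplp2 (0.68), Rpl37rt (0.61), Rpl38 (0.53), Ccng1 (0.38), Taldo1 (0.35) and Gstp1 (0.34). Lower were the matrix genes Spon2 (-1.31), Col1a1 (-0.82), Lama4 (-0.63), Svep1 (-0.53) and Col5a1 (-0.53), the mural genes Notch3 (-0.75) and Pdgfrb (-0.57) and the complement genes C7 (-0.92) and Serping1 (-0.70). Also lower were Siglecf (-1.25), Mcoln3 (-1.18), Pcdh12 (-1.08), Npas2 (-0.77), Rnf144a (-0.73), Fam124b (-0.72), Sod3 (-0.65), Pkd1 (-0.62), Pknox2 (-0.60) and Acly (-0.34).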

How the results depend on the processing

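The count of 1594 genes against LPS alone depended on the fit. It was 0 (0 higher, 0 lower) with only the 2 groups compared, 112 (80 higher, 32 lower) at an absolute log2 fold change of 1, 4919 (366 higher, 4553 lower) in TPM as deposited, 792 (571 higher, 221 lower) with no filter and 4308 (2364 higher, 1944 lower) with sample quality weights. Added after seeing the data, it was 666 (445, 221) with the length trend removed, 551 (382, 169) with length and GC trends removed, 1048 (313 lower) without LPS replicates 1 and 3, and 1556 with factors over all genes. Leaving out 1 library gave 801 to 2923 in all, 560 to 1674 higher and 241 to 1249 lower: 801 without high-dose replicate 5, 942 without replicate 3 and 2923 without replicate 1, and 1028, 1051 and 1051 without LPS replicates 3, 4 and 5. Without high-dose replicate 2 the lower genes numbered 388. Against the low and mid doses, 388 genes became 9 at a log2 change of 1, 1128 as deposited, 63 with no filter, 92 with only those groups, 4162 with weights, 188 and 219 with length or both trends removed, and 63 to 2046 with 1 library left out: 2046, 190, 92, 63 and 63 without high-dose replicates 1 to 5, 200 and 255 without low-dose replicates 1 and 3, and 208 and 209 without mid-dose replicates 3 and 4. The cause was not tested. Upper-quartile scaling (1609), a pseudocount of 0.1 (1593) and a mean filter (1664) stayed within 1.5 times. Of the 73 named genes that passed, 14 no longer did as deposited with the same sign (Cd9 also lost its call), 26 with the length trend removed and 73 with only the 2 groups; Cd9 alone changed sign (-0.0099, as deposited).

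Correlations between same-numbered LPS and high-dose libraries covered about the same range as those of other pairs. They ran from -0.456 to 0.428 over 5 same-numbered pairs, with 3 over 0.1. Over the 20 other pairs they ran from -0.469 to 0.477, with 10 over 0.1. Of the 5 LPS libraries 0 were closest to their own number. A fit with the replicate block passed 1510 genes (956 higher, 554 lower) and 312 against the other doses. Among the named genes 2 calls were lost under it.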

Other observations

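Lactoferrin (Ltf), an iron-binding protein of airway secretions and neutrophil granules, was at 50.3, 26.7, 48.0, 34.1 and 43.7 scaled TPM in LPS and at 112, 67.8, 96.1, 192 and 47.4 in high-dose libraries. The log2 difference was 1.20 (95% CI 0.29 to 2.12, limma adjusted p = 0.095) and did not pass. High-dose replicate 4 was the highest and replicate 5 lay within the LPS range. The gene was named after its values were seen.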
